A study of Mus musculus with 30 samples.

Results

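Oxidative phosphorylation genes encode the protein machinery that mitochondria use to make ATP with oxygen. They were followed here in mouse CD4 T cells as 85 genes of 25865 gene symbols in the RNA count table of naive and activated libraries. The 85 were chosen by name: symbols that begin with Nduf, Uqcr, Cox4 to Cox8 or Atp5, or that equal Sdha, Sdhb, Sdhc or Sdhd. Pseudogene names were left out, and a mean of at least 1 CPM (counts scaled to the library total) was required over the 12 naive and activated libraries. Of 101 matching names, 3 were pseudogenes, 98 stood in both RNA tables and 13 of those were below 1 CPM. The members comprised 38 subunits and 8 Ndufaf assembly factors of complex I, 3 subunits of complex II, 7 of complex III, 12 of complex IV and 17 of complex V. This grouping goes by symbol, so Ndufa4, whose protein is now counted as a complex IV subunit, stood with complex I.

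Electrons from NADH enter the chain at complex I and those from succinate at complex II, which is also an enzyme of the TCA cycle. They pass through complex III and cytochrome c to complex IV, which reduces oxygen, and the proton gradient built on the way drives ATP synthase, complex V. Naive T cells live mainly on oxidative metabolism, and activation by antigen is known to set off growth of the mitochondria together with a strong rise of glycolysis.

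The study addressed protein kinase A (PKA), the kinase that cyclic AMP activates, in splenic and lymph node CD4 T cells of mice labelled PKA knockout (KO) and of wild-type (WT) mice. The RNA groups were activated KO and WT cells, stimulated for 3 days through CD3 and CD28, naive KO and WT cells, and KO and WT cells rested in IL-7 for 3 days and then given forskolin, which raises cyclic AMP, at 1 ug/mL for 4 h. Open chromatin was measured by ATAC-seq in activated and naive cells of both genotypes, and each of the groups held 3 libraries. The labels name neither the PKA gene removed, nor the promoter or Cre behind the knockout, nor the age of the mice, and they leave unsaid if replicates are different mice, so a p-value reflects only how far these libraries spread.

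RNA libraries held 7665955 to 11950488 counts on named genes, and ATAC libraries 18522373 to 25318916 counts in sites. Prkaca, the gene of a catalytic PKA subunit, ranged over 0.92 to 1.45 CPM in activated KO against 43.2 to 55.5 CPM in activated WT libraries, over 2.04 to 2.57 CPM in naive KO against 29.3 to 39.3 CPM in naive WT libraries, and with forskolin over 2.72 to 3.90 CPM in KO against 32.4 to 36.7 CPM in WT libraries. All 7 CD4 T cell markers were detected in every group, with a summed level of 2078 to 2084 CPM in activated KO and 2109 to 2235 CPM in activated WT libraries. By their means in activated cells, Cd3e, Cd3d and Cd3g were higher in KO, and Cd4, Trac, Cd28 and Lck were lower. Markers of B cells summed to 5.31 to 8.56 CPM in activated KO and 1.52 to 2.94 CPM in activated WT libraries, with Pax5 at 0 in activated KO cells. Erythroid markers summed to 6.83 to 15.0 CPM in naive KO libraries, against 1.70 to 6.53 CPM in naive WT libraries. B cell markers stood there at 6.03 to 7.92 CPM in KO and 2.39 to 4.23 CPM in WT, with Pax5 the other way. CD8 T cell markers stood at 26.1 to 27.9 CPM in naive KO and 23.2 to 23.9 CPM in naive WT, and myeloid markers, mostly Itgam, at 6.49 to 8.53 and 9.07 to 11.6 CPM. In activated libraries the NK cell list, nearly all Eomes, summed to 119 to 162 CPM in KO and 155 to 192 CPM in WT. The part of these other cells in the results below was not tested.

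The promoters of members picked by their p, past the test or not, are shown first. PKA acts on transcription through CREB, which binds the sequence TGACGTCA (CRE), and NRF1, whose core site is GCATGCGC, is a known activator of respiratory genes. They are the 200 bases before the start of each gene, from RefSeq on GRCm38.p6, written along the gene's own strand, and capitals mark letters of a searched motif on either strand. Each except Ndufa3 is the member of its complex with the smallest p in activated KO against WT cells that had a promoter in the table and was not on a chromosome left out here. Ndufa3 is shown because it had the smallest p for a difference in the response to activation, which did not pass the test. Ndufaf4, Sdhb and Uqcr10 did not pass in activated KO against WT cells.
Ndufb10 (complex I, chr17:24724424-24724623, minus strand): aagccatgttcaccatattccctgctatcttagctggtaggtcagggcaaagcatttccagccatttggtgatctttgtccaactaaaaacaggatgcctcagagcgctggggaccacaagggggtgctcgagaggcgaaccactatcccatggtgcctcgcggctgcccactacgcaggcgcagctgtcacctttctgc
Ndufa3 (complex I, chr7:3617173-3617372, plus strand): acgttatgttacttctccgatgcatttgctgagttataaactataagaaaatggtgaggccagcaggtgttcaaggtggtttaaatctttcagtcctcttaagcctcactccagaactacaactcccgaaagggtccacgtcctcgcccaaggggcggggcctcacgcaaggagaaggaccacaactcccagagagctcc
Ndufaf4 (complex I assembly, chr4:24897883-24898082, plus strand): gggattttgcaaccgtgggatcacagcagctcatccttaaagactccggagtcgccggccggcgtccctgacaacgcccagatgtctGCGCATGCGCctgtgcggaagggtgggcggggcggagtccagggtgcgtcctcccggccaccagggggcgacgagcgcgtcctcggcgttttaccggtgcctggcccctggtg
Sdhb (complex II, chr4:140961071-140961270, plus strand): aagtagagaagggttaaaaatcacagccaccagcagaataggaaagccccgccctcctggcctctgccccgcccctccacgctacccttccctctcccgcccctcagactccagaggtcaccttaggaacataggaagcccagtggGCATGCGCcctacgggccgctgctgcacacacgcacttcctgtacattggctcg
Uqcr10 (complex III, chr11:4704345-4704544, minus strand): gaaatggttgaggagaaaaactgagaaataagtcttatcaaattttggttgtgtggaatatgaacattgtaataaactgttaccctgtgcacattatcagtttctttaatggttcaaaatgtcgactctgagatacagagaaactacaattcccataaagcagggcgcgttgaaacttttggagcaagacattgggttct
Cox7a2l (complex IV, chr17:83514334-83514533, minus strand): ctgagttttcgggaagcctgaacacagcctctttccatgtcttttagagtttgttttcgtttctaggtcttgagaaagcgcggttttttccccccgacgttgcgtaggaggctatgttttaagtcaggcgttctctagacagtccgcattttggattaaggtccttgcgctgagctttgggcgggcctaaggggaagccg
Atp5g1 (complex V, chr11:96075632-96075831, minus strand): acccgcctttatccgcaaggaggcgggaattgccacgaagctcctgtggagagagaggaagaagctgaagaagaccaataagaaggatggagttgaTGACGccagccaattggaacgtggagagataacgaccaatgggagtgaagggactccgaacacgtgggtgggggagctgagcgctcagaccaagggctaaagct

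Of the 85 members, 71 had a promoter of 300 bases (250 before and 50 after the start) in the RefSeq table. The full CRE, TGACGTCA, was found in 4 of them (5.63%), against 3.74% of the 9352 genes tested for RNA that had a promoter and 2.03% of all 27025 genes. The shorter CRE core TGACG, which the full CRE contains, was in 36.6% of members and 36.5% of tested genes. The NRF1 core was in 15.5% of members and 6.28% of tested genes, and the YY1 letters AAGATGGC were also in 15.5% of members and in 5.53% of tested genes. The ETS core CCGGAAG, which GABPA binds, was in 23.9% of members and 21.4% of tested genes. In the promoters shown, Ndufaf4 held overlapping NRF1 cores on both strands, Sdhb held 1, and Atp5g1 held the CRE core. The other promoters shown held none of the searched letters in these bases. These are matches of letters, not measured binding.

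Activation for 3 days was followed by higher mRNA of most members in both genotypes. In KO cells 66 of 85 rose (77.6%, where 42.3% of the 11980 genes tested rose), 4 fell (4.71%, where 39.8% of all genes fell) and 15 did not pass the test. In WT cells 59 rose (69.4%, against 42.3% of all genes), 8 fell (9.41%, against 40.3%) and 18 did not pass. The median log2 fold change, activated over naive, was 0.79 in KO and 0.65 in WT cells, where the medians of all genes were 0.04 and 0.03. The test was edgeR's quasi-likelihood test at an adjusted p of 0.05 over all genes. A gain of at least 1 on the log2 scale was seen in 25 members in KO cells (29.4%, against 24.8% of all genes) and in 17 in WT cells (20%, against 25.2%). A loss of that size was seen in 1 member in KO cells (1.18%, against 20.7%) and in 2 in WT cells (2.35%, against 21.6%). By complex, the members that rose were 29 of 38 complex I subunits in KO and 25 in WT cells, 2 of 3 in complex II in each genotype, 10 of 12 in complex IV in KO and 9 in WT cells, and 13 of 17 in complex V in KO and 11 in WT cells. The rises, and the gains of at least 1, include Cox6b2 in both genotypes, whose naive level was near the counting limit given below. Cox7a2, whose low level is uncertain, is among the rises in KO cells.

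Summed over all members, mRNA stood at 13181 ± 476 CPM in activated KO and 7454 ± 422 CPM in naive KO cells, and at 12252 ± 459 CPM in activated WT and 7562 ± 710 CPM in naive WT cells (SD, n = 3 each). As a share of all counted RNA this was 1.32% in activated KO, 0.745% in naive KO, 1.23% in activated WT and 0.756% in naive WT cells. The ratio of summed means, activated over naive, was 1.77 in KO and 1.62 in WT cells. With TMM scaling of the libraries it was 1.62 and 1.49. For complex IV it was 1.32 in KO and 1.16 in WT cells, and 1.21 and 1.07 with TMM scaling. Activated and naive WT libraries overlapped for complex IV in both scalings. Less RNA per cell and fewer cells of a type cannot be told apart in such bulk libraries, and a level here is a share of the RNA pool, not an amount per cell.

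**Figure D1:**
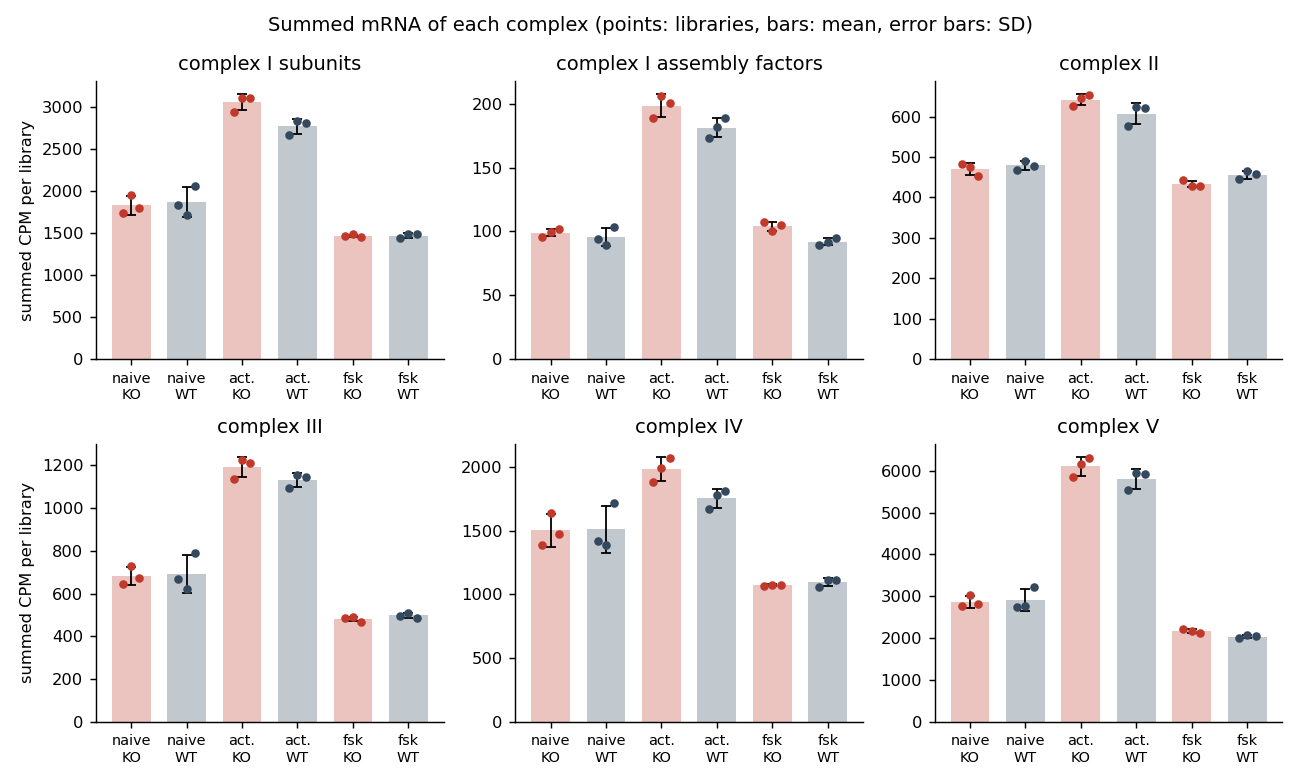
Summed CPM of the members of each complex in every RNA library, KO left of WT, for naive, activated (act.) and forskolin-treated (fsk) cells. Points are libraries, bars start at 0 and show the mean of 3 libraries, and error bars are the SD. All members together averaged 13181 CPM in activated KO and 12252 CPM in activated WT cells, with naive KO cells at 7454 CPM and naive WT cells at 7562 CPM.

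Of the 7 core subunits of complex I, 7 rose in KO cells, with a median log2 fold change of 0.57 and a range of 0.38 to 1.11, and 6 rose in WT cells, with a median of 0.46 over all 7 and a range of 0.13 to 0.84. Ndufs1, which holds iron-sulfur clusters of the peripheral arm, had 93.3, 98.6 and 94.6 CPM in activated KO and 65.9, 70.0 and 65.5 CPM in naive KO libraries, and 81.9, 90.2 and 94.8 CPM in activated WT and 72.1, 69.3 and 61.8 CPM in naive WT libraries. Activated and naive libraries did not overlap in either genotype, and the log2 fold change was 0.38 ± 0.07 in KO (SE, adjusted p = 0.000117) and 0.27 ± 0.07 in WT cells (adjusted p = 0.00247). Ndufv1, which binds the flavin that accepts electrons from NADH, rose by 0.81 ± 0.08 in KO and 0.65 ± 0.08 in WT cells.

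Several accessory subunits moved much further. Ndufab1, the mitochondrial acyl carrier protein that also serves fatty acid synthesis, had 66.4, 74.0 and 75.8 CPM in activated KO and 17.8, 21.4 and 17.1 CPM in naive KO libraries, and 65.1, 68.5 and 67.5 CPM in activated WT and 18.2, 16.7 and 19.1 CPM in naive WT libraries. Its log2 fold change was 1.81 ± 0.10 in KO (adjusted p = 1.37e-11) and 1.78 ± 0.10 in WT cells (adjusted p = 1.71e-11). Ndufa12, an accessory subunit of the peripheral arm, rose by 1.78 ± 0.10 in KO and 1.76 ± 0.11 in WT cells. Ndufb6, of the membrane arm, rose by 1.68 ± 0.10 in KO and 1.41 ± 0.10 in WT cells.

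Among the assembly factors, which help to build complex I and are not part of it, 6 of 8 rose in each genotype. Ndufaf2 had 24.7, 29.3 and 28.8 CPM in activated KO and 5.54, 6.55 and 6.94 CPM in naive KO libraries, and 21.7, 25.2 and 27.7 CPM in activated WT and 6.26, 5.58 and 5.08 CPM in naive WT libraries. Every activated library lay above every naive library, with log2 fold changes of 1.99 ± 0.13 in KO and 2.01 ± 0.14 in WT cells. Ndufaf6 rose by 1.93 ± 0.13 in KO and 1.86 ± 0.14 in WT cells, Ndufaf1 by 0.87 ± 0.10 and 0.92 ± 0.10, and Ndufaf4 by 0.79 ± 0.09 and 0.85 ± 0.10.

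In complex II, Sdhb, the iron-sulfur subunit, rose by 0.83 ± 0.07 in KO and 0.73 ± 0.07 in WT cells, and Sdhc, a membrane anchor, by 0.79 ± 0.07 and 0.62 ± 0.07. Sdha, the flavoprotein that oxidises succinate, had 358, 375 and 372 CPM in activated KO and 339, 329 and 316 CPM in naive KO libraries, and 334, 365 and 366 CPM in activated WT and 328, 352 and 325 CPM in naive WT libraries. Activated KO libraries stood above naive KO libraries and the WT libraries overlapped, and the gene did not pass the test in KO (log2 fold change 0.04 ± 0.06, adjusted p = 0.599) or WT cells (-0.04 ± 0.06, adjusted p = 0.554).

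In complex III, 6 of 7 members rose in both genotypes. Uqcr10, a small subunit, had 150, 170 and 163 CPM in activated KO and 39.7, 47.4 and 43.9 CPM in naive KO libraries, and 125, 153 and 145 CPM in activated WT and 40.9, 36.9 and 43.6 CPM in naive WT libraries, a log2 fold change of 1.75 ± 0.10 in KO and 1.68 ± 0.10 in WT cells. Uqcrc1, a core protein, rose by 0.88 ± 0.07 in KO and 0.77 ± 0.07 in WT cells, and Uqcrfs1, the Rieske iron-sulfur protein, by 0.73 ± 0.08 and 0.79 ± 0.08. Uqcrh, the hinge protein that docks cytochrome c, went the other way, by -0.51 ± 0.19 in KO (adjusted p = 0.0274) and -0.76 ± 0.19 in WT cells (adjusted p = 0.00335). Its naive WT libraries stood at 150, 132 and 218 CPM, and its call in KO cells was lost without activated KO replicate 1 or naive KO replicates 2 or 3 and with no filter on low counts (adjusted p up to 0.0885).

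Complex IV held the largest fall. Cox7a2l, also called SCAF1, a factor that joins complexes III and IV into a supercomplex, had 156, 150 and 158 CPM in activated KO and 425, 504 and 446 CPM in naive KO libraries, and 125, 117 and 121 CPM in activated WT and 437, 440 and 515 CPM in naive WT libraries. Its log2 fold change was -1.70 ± 0.09 in KO (adjusted p = 1.06e-11) and -2.07 ± 0.09 in WT cells (adjusted p = 7.44e-13). Cox5a and Cox5b, nuclear-encoded accessory subunits, rose by 1.40 ± 0.07 and 1.15 ± 0.07 in KO and by 1.34 ± 0.07 and 1.12 ± 0.07 in WT cells, and Cox8a, a small subunit, by 1.06 ± 0.10 in KO and 0.81 ± 0.10 in WT cells. Cox4i1, which takes part in the control of complex IV by ATP, did not pass the test in KO (0.17 ± 0.12, adjusted p = 0.204) or WT cells (-0.05 ± 0.12, adjusted p = 0.724).

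Isoforms known from other tissues stayed low. Cox6b2, a testis isoform just inside the rule at a mean of 1.50 CPM over the 12 libraries, had 3.60, 2.90 and 3.21 CPM in activated KO and 2.50, 1.80 and 2.51 CPM in activated WT libraries, while naive libraries held at most 0.443 CPM, near the limit of 3 counts (0.251 to 0.391 CPM) that a count of 0 allows. No fold is given for it. Just outside the rule were Cox7a1 at 0.472 CPM and Cox6a2 at 0.350 CPM, the heart and muscle isoforms. Cox4i2, the lung and hypoxia isoform, was at 0.0995 CPM, Ndufa4l2, a hypoxia-induced relative of Ndufa4, at 0.0322 CPM, and Cox8b, Cox8c and Cox7b2 held 0 counts in all 12 libraries.

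Sdhd, a membrane anchor of complex II that every respiring cell uses, was also below the rule at 0.419 CPM, and so was Uqcr11 of complex III at 0.0158 CPM. Cox7a2, the common isoform of its subunit, was just inside at 1.13 CPM. How reads that match several near-identical places were counted is not given in the sources used here, so these low levels are uncertain, as is the level of Ndufs6b, a close copy of Ndufs6. The 13 subunits encoded by mitochondrial DNA were looked for by name, and 0 were among the gene symbols of naive and activated libraries. They could not be analysed, and under those names they add nothing to the library totals behind the shares of counted RNA above.

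In complex V, Atp5b, the catalytic beta subunit, had 1919, 1983 and 2048 CPM in activated KO and 700, 758 and 701 CPM in naive KO libraries, and 1966, 2012 and 2035 CPM in activated WT and 678, 713 and 799 CPM in naive WT libraries. The log2 fold change was 1.33 ± 0.08 in both KO and WT cells. Atp5a1, the alpha subunit, rose by 1.00 ± 0.07 in KO and 0.94 ± 0.07 in WT cells. Atp5h, of the peripheral stalk, fell by 0.22 ± 0.08 in KO (adjusted p = 0.0117) and by 0.42 ± 0.08 in WT cells (adjusted p = 6.24e-05) on the log2 scale, and its call in KO cells was lost without activated KO replicate 1 or naive KO replicate 2 (adjusted p up to 0.0614).

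The c-ring, the rotor through which protons pass, is encoded by Atp5g1, Atp5g2 and Atp5g3, which give the same mature protein. Atp5g1 rose by 1.60 ± 0.07 in KO and 1.36 ± 0.07 in WT cells, and Atp5g3 by 1.58 ± 0.09 and 1.45 ± 0.09. Atp5g2 had 210, 205 and 210 CPM in activated KO and 130, 147 and 141 CPM in naive KO libraries (0.45 ± 0.12, adjusted p = 0.004), and 188, 183 and 178 CPM in activated WT and 123, 124 and 174 CPM in naive WT libraries (0.25 ± 0.12, adjusted p = 0.0745). Atpif1, the inhibitor that stops the synthase from running backwards, lies outside the naming rule and is not counted among the members. It stood at 98.6 ± 2.95 CPM in activated KO and 13.6 ± 1.92 CPM in naive KO cells, and at 87.9 ± 5.52 CPM in activated WT and 12.3 ± 1.66 CPM in naive WT cells (SD, n = 3 each), a log2 fold change of 2.73 in KO and 2.72 in WT cells.

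**Figure D2:**
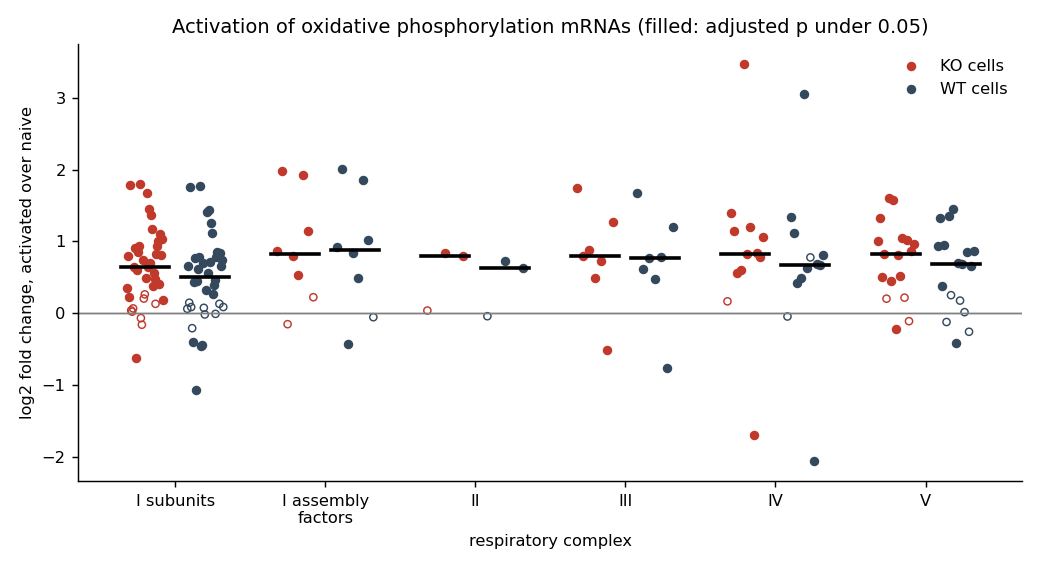
Log2 fold change, activated over naive, of each member by respiratory complex, KO cells left of WT cells. Each point is a gene, filled where the adjusted p is under 0.05, and black lines are medians. Most points lie above 0, the highest is Cox6b2, whose naive level was near the limit of 3 counts, and the lowest is Cox7a2l, also of complex IV, at -1.70 in KO and -2.07 in WT cells.

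The 8 members that fell in WT cells were Cox7a2l, Ndufa6 (-1.08), Uqcrh, Ndufb11 (-0.45), Ndufb10 (-0.45), Ndufaf3 (-0.42), Atp5h and Ndufa3 (-0.41), and the 4 that fell in KO cells were Cox7a2l, Ndufa6 (-0.63), Uqcrh and Atp5h. Of the calls, 67 of 70 in KO cells and 64 of 67 in WT cells passed in every alternative fit at that threshold, and the 3 lost in KO cells were Atp5h, Uqcrh and Ndufa11. In WT cells Ndufa4 was lost without activated WT replicates 2 or 3 or naive WT replicates 1 or 2 and under upper-quartile scaling or no low-count filter (adjusted p up to 0.0979), Ndufaf3 without activated WT replicate 2 or naive WT replicates 1 or 3 (up to 0.0719), and Ndufb11 without activated WT replicates 1 or 2 or naive WT replicate 3 and with no low-count filter (up to 0.0854). Ndufa11 was lost without activated KO or WT replicates 2 or 3 or naive KO replicate 3 (up to 0.215).

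Other genes of mitochondria were counted by the same test for comparison. Of all 11980 genes tested, 42.3% rose and 39.8% fell in KO cells, and 42.3% rose and 40.3% fell in WT cells. A list whose counts lie near these shares is not set apart from other genes. Of 77 mitochondrial ribosomal protein genes, which translate the mtDNA-encoded subunits, 74 rose in KO and 71 in WT cells, with medians of 1.01 and 0.98. Genes of import, membrane and chaperones rose in 23 of 24 cases in each genotype, led by Hspd1, the Hsp60 chaperonin, at 3.18 in WT cells. In the TCA cycle 11 of 14 rose in each genotype. Assembly factors of complex I outside the naming rule were divided, with 5 of 10 higher and 3 lower in KO cells and 5 higher and 5 lower in WT cells. Assembly factors of complex IV were divided too, with 13 of 24 higher and 7 lower in KO and 14 higher and 7 lower in WT cells, as were those of complexes II and III, with 5 of 10 higher in each genotype and 2 lower in KO and 3 in WT cells. In mtDNA replication and transcription 8 of 16 rose and 5 fell in KO, and 7 rose and 6 fell in WT cells. Of 13 antioxidant genes 8 rose and 1 fell in KO, and 7 rose and 2 fell in WT cells. Of 11 regulators of biogenesis 4 rose and 5 fell in KO, and 5 rose and 6 fell in WT cells. Of 21 electron carriers and ubiquinone genes, 17 rose in each genotype, and Coq7, a hydroxylase of ubiquinone synthesis, rose by 2.63 in WT cells.

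Between genotypes, activated KO cells had slightly more mRNA of most members, but few single genes passed the test. Of 85, 5 were higher in KO (5.88%, where 5.89% of the 11980 genes tested were higher) and 0 were lower (where 9.04% of all genes were lower). The share called higher was therefore that of all genes. The log2 fold change was above 0 in 81 of 85 members, against 52.8% of all genes, with a median of 0.12 where that of all genes was 0.01. All 3 KO libraries stood above all 3 WT libraries for 45 members (52.9%, where 22.1% of all genes did so), and below them for Atp5d alone (1.18%, where 17.1% did so). Across the alternative fits the median stayed between 0.09 and 0.17, and 73 to 83 members were above 0.

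The summed CPM of all members in activated cells ranged from 12642 to 13545 in KO and from 11723 to 12521 in WT libraries, so the groups did not overlap. With TMM scaling of the libraries the range was 12026 to 12919 CPM in KO and 11473 to 12122 CPM in WT libraries, and the groups overlapped. By complex, activated KO cells held 3057 ± 96.6 CPM and activated WT cells 2770 ± 91.5 CPM of complex I subunits, and 1984 ± 95.4 CPM and 1755 ± 73.8 CPM of complex IV. The ratio of summed means, KO over WT, was 1.08 for all members, 1.10 for complex I subunits, 1.10 for complex I assembly factors, 1.06 for complex II, 1.05 for complex III, 1.13 for complex IV and 1.05 for complex V. With TMM scaling it was 1.06 for all members, 1.09 for complex I subunits, 1.08 for complex I assembly factors, 1.04 for complex II, 1.04 for complex III, 1.11 for complex IV and 1.04 for complex V. KO and WT libraries were apart for complex I subunits and complex IV in both scalings, overlapped for complexes III and V in both, and overlapped for complex II and complex I assembly factors with TMM scaling only. No test is given for a sum over chosen members. In the same-numbered pairs of activated libraries the median log2 ratio, KO over WT, was 0.17, 0.15 and 0.15, and 78, 78 and 79 of 85 members were higher in the KO library. The markers of B cells given above were higher in the same KO libraries, at most 8.56 CPM in sum.

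In complex I, Ndufb10, a membrane-arm subunit, had 71.6, 78.8 and 71.5 CPM in activated KO and 54.1, 56.6 and 62.4 CPM in activated WT libraries. The groups did not overlap, and the log2 fold change was 0.33 ± 0.08 (SE, adjusted p = 0.0104, edgeR), a call lost without activated KO replicate 2 (adjusted p = 0.0652). Ndufa3, another accessory subunit, had 66.8, 80.2 and 75.2 CPM in activated KO and 56.7, 59.6 and 59.0 CPM in activated WT libraries, again without overlap (0.32 ± 0.10, adjusted p = 0.0334). The core subunits Ndufs1 and Ndufv1 did not pass, at 0.08 ± 0.07 and 0.05 ± 0.08.

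In complex IV, Cox7a2l had the values listed above, 150 to 158 CPM in activated KO and 117 to 125 CPM in activated WT libraries, without overlap and with a log2 fold change of 0.33 ± 0.09 (adjusted p = 0.0214). Its fall with activation shares the activated WT libraries with this comparison. Cox5a gave 0.02 ± 0.07 and Cox4i1 0.17 ± 0.12 (adjusted p = 0.88 and 0.398). No member of complexes II or III passed the test in activated cells, and Sdha, Sdhb, Uqcrc1 and Uqcrfs1 gave 0.03, 0.09, 0.06 and -0.12.

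In complex V, Atp5g1 had 140, 144 and 151 CPM in activated KO and 116, 125 and 126 CPM in activated WT libraries (0.22 ± 0.07, adjusted p = 0.0277). Atp5k, subunit e, which takes part in joining the synthase into dimers, had 67.9, 77.3 and 77.0 CPM in activated KO and 55.1, 63.3 and 58.2 CPM in activated WT libraries (0.31 ± 0.10, adjusted p = 0.0469). In both genes the lowest KO library stood above the highest WT library. Atp5d, the delta subunit of the central stalk, had 96.8, 88.2 and 93.3 CPM in activated KO and 101, 108 and 111 CPM in activated WT libraries, and did not pass (-0.23 ± 0.08, adjusted p = 0.0776).

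**Figure D3:**
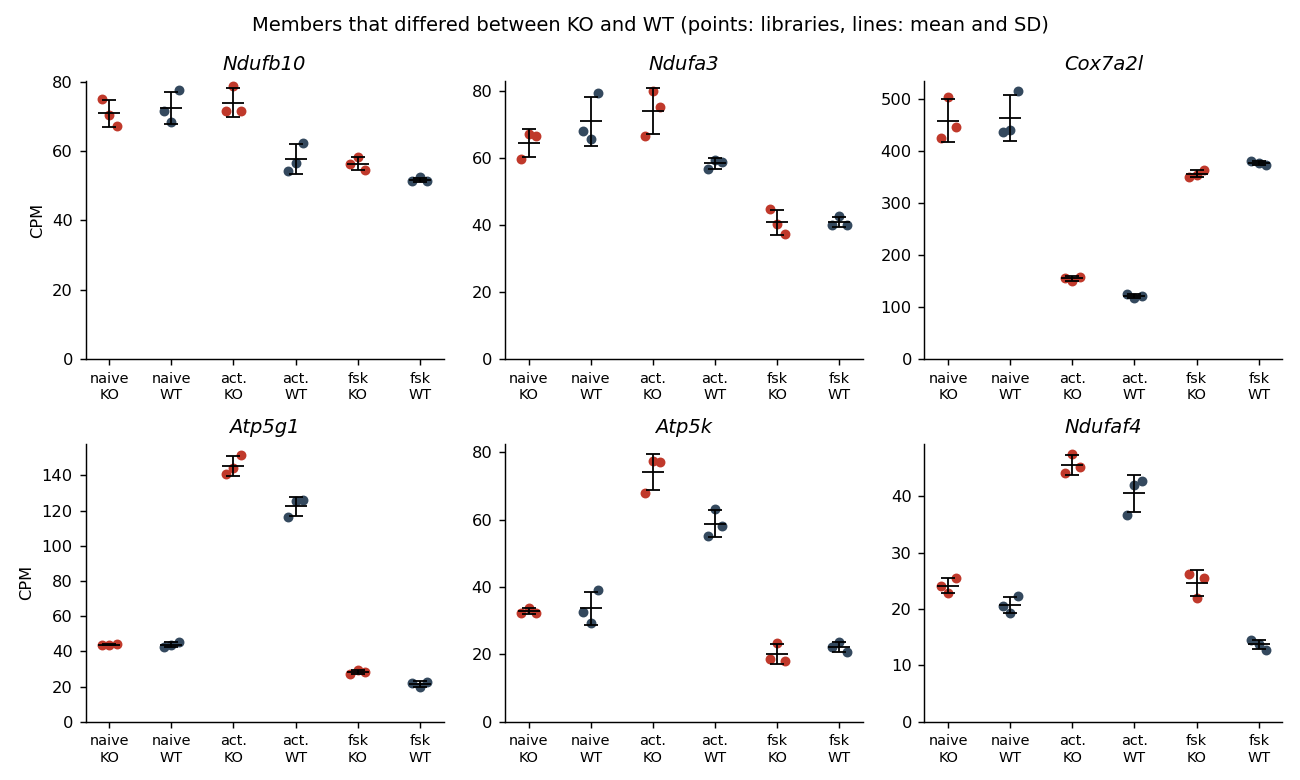
CPM of 6 members in every RNA library, KO left of WT, for naive, activated (act.) and forskolin-treated (fsk) cells. Points are libraries, and lines show the mean and SD of 3 libraries. Cox7a2l stands at 150 to 158 CPM in activated KO and 117 to 125 CPM in activated WT libraries, and Ndufaf4 at 22.0 to 26.3 CPM in KO and 12.8 to 14.5 CPM in WT libraries with forskolin.

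These calls were close to the threshold, and none of the 5 passed in every alternative fit. The count of 5 became 1 without activated KO replicate 2, activated KO replicate 3, activated WT replicate 2 or activated WT replicate 3, and 2 without activated WT replicate 1. Leaving out activated KO replicates 2 or 3 or any activated WT replicate ended the calls of Atp5g1, Ndufa3 and Atp5k (adjusted p up to 0.137, 0.166 and 0.169), and Atp5k was also lost without naive KO replicate 3 and with DESeq2. Cox7a2l was lost without activated KO replicates 1 or 3 or activated WT replicates 2 or 3 (up to 0.0823).

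Some genes around the respiratory chain showed larger differences than the 5 members that passed. They came from lists in which few genes passed. Of 21 electron carriers and ubiquinone genes 1 was higher and 2 were lower. Of 24 complex IV assembly factors 1 was higher and 1 lower, as of 11 regulators of biogenesis. Of 13 antioxidant genes 1 was higher and 0 were lower. Gpd2, which feeds electrons from glycerol 3-phosphate into the ubiquinone pool, stood at 36.0 ± 1.29 CPM in activated KO and 83.2 ± 9.68 CPM in activated WT cells (log2 fold change -1.23 ± 0.10, adjusted p = 1.8e-07). Ucp2, an inner-membrane carrier, stood at 848 ± 18.6 CPM in activated KO and 613 ± 24.9 CPM in activated WT cells (0.44 ± 0.08, adjusted p = 0.000669). Cox20, an assembly factor of complex IV, was higher in activated KO (0.46 ± 0.11, adjusted p = 0.00742) and Higd1a, a hypoxia-inducible partner of complex IV, was lower (-0.35 ± 0.08, adjusted p = 0.00593). Of the regulators of mitochondrial biogenesis, Ppargc1b was higher (0.54 ± 0.14, adjusted p = 0.0147) and Myc, a driver of growth, was lower (-0.45 ± 0.08, adjusted p = 0.00105). Among the 77 mitochondrial ribosomal protein genes 1 was higher and 0 were lower, with a median of 0.06, and of the 14 TCA cycle genes 0 passed, with a median of -0.05 and 6 above 0. Of the other lists, 0 of 24 genes of import, membrane and chaperones and 0 of 10 complex I assembly factors outside the naming rule passed. The latter had a median of 0.15, with 9 above 0. Assembly factors of complexes II and III had 0.16 (8 of 10 above 0, 1 higher by the test). Assembly factors and small subunits of ATP synthase had 0.15 (6 of 6 above 0, 0 passed). Medians of the remaining lists lay between -0.01 and 0.08. A shift like that of the members was thus also seen in these assembly factor lists. Of all genes tested, 5.89% were higher and 9.04% lower in activated KO cells.

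In naive cells 0 of 85 members passed the test in either direction (edgeR, where 0.242% of all genes did), and 0 passed with DESeq2 or limma-voom. At an unadjusted p under 0.05 there were also 0. The median log2 fold change, KO over WT, was -0.04, and 27 of 85 were above 0, where 46.8% of all genes were. The direction rested on single libraries: the same-numbered pairs gave medians of -0.04, 0.18 and -0.18, and without naive WT replicate 3 the median was 0.06 with 64 members above 0. That library held the highest level of Uqcrh (218 CPM) and Cox7a2l (515 CPM) among the naive libraries.

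Whether activation changed the members differently in KO cells was tested directly. The difference in log2 fold change, KO minus WT, passed for 0 of 85 members (edgeR, where 3.7% of all genes passed), with 8 at an unadjusted p under 0.05 and 0 with DESeq2 or limma-voom. The median difference was 0.13, and 78 of 85 were above 0, where 51.3% of all genes were. Without naive WT replicate 3 these became 0.04 and 54. Ndufa3 had the smallest p (0.48 ± 0.14, adjusted p = 0.0652), then Ndufb10 (0.39 ± 0.12, adjusted p = 0.0823) and Cox7a2l (0.37 ± 0.13, adjusted p = 0.142). Outside the members, the difference passed for Gpd2 (-1.08), Higd1a (-0.47), Ucp2 (0.44) and Myc (-0.50).

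Forskolin-treated cells had been rested and not activated, and their libraries had a fit of their own on 11658 genes. Of the 84 members tested there, 6 were higher in KO (7.14%, where 19.7% of all genes were higher) and 6 were lower (7.14%, where 18.8% were lower). The median log2 fold change was -0.02, and 37 of 84 were above 0, where 49.5% of all genes were. All KO libraries stood above all WT libraries for 17 members (20.2%, against 26.8% of all genes) and below them for 10 (11.9%, against 21.3%). Summed over members, mRNA averaged 5730 ± 58.2 CPM in KO cells, against 5648 ± 117 CPM in WT cells (SD, n = 3 each). Cox7a2 was below the filter of this fit. Markers of CD4 T cells summed to 2582 to 2688 CPM in KO and 3231 to 3284 CPM in WT libraries with forskolin. Lck alone of these went the other way, with a mean of 591 CPM in KO and 567 CPM in WT cells. Markers of CD8 T cells summed to 22.2 to 26.5 CPM in KO and 16.2 to 19.2 CPM in WT libraries. This came from Cd8b1 (22.2 and 15.6 CPM), as Cd8a had means of 1.54 CPM in KO and 1.61 CPM in WT cells. Those of B cells summed to 3.99 to 4.78 CPM in KO and 2.48 to 3.11 CPM in WT libraries, with 2 of 6 at 0 in WT cells and Ebf1 lower in KO. The part of these differences in the forskolin results was not tested.

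The largest difference was in Ndufaf4, an assembly factor of complex I, whose promoter is shown above. It had 26.3, 22.0 and 25.5 CPM in KO and 14.5, 13.9 and 12.8 CPM in WT libraries with forskolin, a log2 fold change of 0.83 ± 0.11 (adjusted p = 2.18e-07). The groups stood well apart. In activated and naive cells it did not pass (0.15 ± 0.09 and 0.20 ± 0.10, adjusted p = 0.314 and 1).

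Higher members of ATP synthase were Atp5g1, with 27.2, 29.5 and 28.1 CPM in KO and 21.9, 19.5 and 22.7 CPM in WT libraries (0.38 ± 0.09, adjusted p = 0.000742), and Atp5b, with 593, 570 and 575 CPM in KO and 496, 515 and 516 CPM in WT libraries (0.17 ± 0.04, adjusted p = 0.000452). Atp5g2 (0.18 ± 0.05) and Atp5pb of the peripheral stalk (0.16 ± 0.04) were higher as well, and Atp5d (-0.22 ± 0.07) and the small subunit Atp5md (-0.21 ± 0.08) were lower. Atp5g1 was thus higher in KO both with forskolin and after activation. In complex IV Cox5a was higher, with 47.4, 42.0 and 44.0 CPM in KO and 34.0, 41.0 and 38.7 CPM in WT libraries (0.21 ± 0.08, adjusted p = 0.0286).

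The lower members were led by Uqcrh, with 82.3, 84.4 and 80.1 CPM in KO and 98.0, 104 and 97.6 CPM in WT libraries (-0.30 ± 0.05, adjusted p = 2.21e-05), and Sdha, with 305, 305 and 307 CPM in KO and 323, 338 and 328 CPM in WT libraries (-0.13 ± 0.03, adjusted p = 0.00162). Neither gene overlapped between genotypes. Cox7a2l (-0.10 ± 0.03, adjusted p = 0.0141) and Ndufa4 (-0.16 ± 0.06, adjusted p = 0.0435) were lower too.

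Of the 12 calls with forskolin, 7 passed in every alternative fit at that threshold (Ndufaf4, Sdha, Uqcrh, Atp5b, Atp5g1, Atp5g2 and Atp5pb). Cox5a was lost without KO replicate 1 or WT replicate 1 and with DESeq2 (adjusted p up to 0.176), and Atp5d without KO replicate 3 or WT replicate 1 and with DESeq2 (up to 0.0882). Atp5md was lost without KO replicate 3 or WT replicates 1 or 3 and by upper-quartile scaling, DESeq2 and limma-voom (up to 0.21). Cox7a2l was lost without KO replicates 1 or 2 and with no low-count filter (up to 0.0973), and Ndufa4 without any KO replicate or WT replicates 1 or 2 and under 3 other settings (up to 0.215).

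Some regulators and partners differed more here than any member that passed, except Ndufaf4. Myc (1.42 ± 0.13, with 100 ± 12.9 CPM in KO cells, against 36.9 ± 4.89 CPM in WT cells) and Pprc1, a coactivator of respiratory genes of the PGC-1 family (1.29 ± 0.06), were higher in KO with forskolin, as were 6 of 11 regulators in all. So were 13 of 24 genes of import, membrane and chaperones and 16 of 77 mitochondrial ribosomal protein genes, while 2 of 24 and 0 of 77 were lower, where 19.7% of all genes were higher and 18.8% lower. Slc25a3, the phosphate carrier that supplies ATP synthase, was lower (-0.55 ± 0.03). Polg2, the accessory subunit of the mtDNA polymerase, was lower too (-1.02 ± 0.10).

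**Figure D4:**
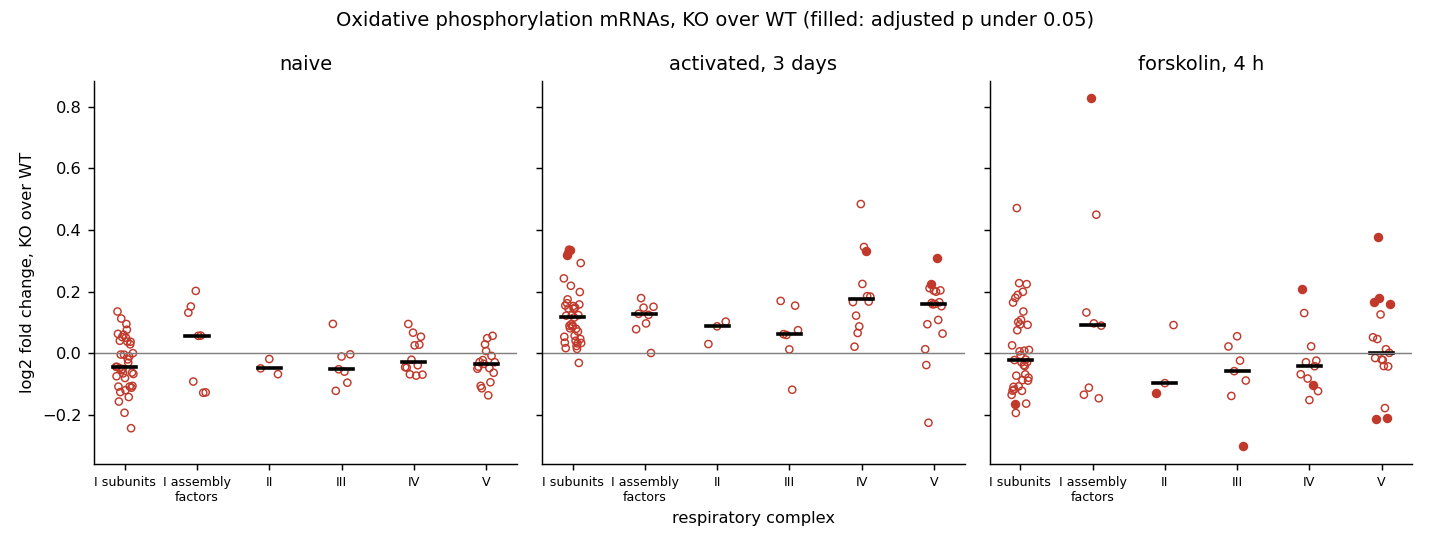
Log2 fold change, KO over WT, of each member by respiratory complex in naive, activated and forskolin-treated cells. Each point is a gene, filled where the adjusted p is under 0.05, and black lines are medians. In activated cells 81 of 85 points lie above 0 and 5 are filled, in naive cells 27 lie above 0 and 0 are filled, and with forskolin 12 of 84 are filled, the highest of them Ndufaf4.

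Open chromatin was read at promoters. Of 71 members with a start in the RefSeq table, 67 had a site within 500 bases of it, 68 sites in all, among 12143 sites at the start of any gene. Counts per site of both ATAC tables were put into a single edgeR fit, with levels in CPM of the counts in sites after TMM scaling. Ndufaf3 may serve as an example, with a site at chr9:108566990-108567390 (mm10) that had 56.7, 56.7 and 58.2 CPM in activated KO and 46.1, 46.5 and 48.7 CPM in activated WT libraries.

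In activated cells 20 of 68 sites were higher in KO (29.4%, where 15.5% of sites at any start and 10.9% of all sites were higher) and 0 were lower (where 6.18% at any start and 17.5% of all were lower). By the FDR in the authors' deposited table, none (0 of 68) passed (where 0.519% of all sites were higher and 4.64% lower in KO). In the authors' deposited table the log2 fold, turned to KO minus WT, had a median of 0.0070 over the 68 sites, with 38 above 0 and a range of -0.25 to 0.15, where its median over all sites was -0.11. The sizes were small: the median log2 fold change was 0.13, against 0.08 for sites at any start and 0.02 for all sites. The count was 8 with RLE scaling and 6 to 23 with a library left out. It was 11 without KO replicate 1, 7 without KO replicate 2, 6 without KO replicate 3, and 7, 7 and 9 without WT replicates 1, 2 and 3.

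The smallest p was at Ndufaf3 (0.28 ± 0.05, adjusted p = 0.000264), whose mRNA gave 0.18 ± 0.15 and did not pass. Ndufa3 was among the 20 (0.22 ± 0.05) and also passed for its mRNA. The sites at Ndufb10 (0.12 ± 0.07, adjusted p = 0.219), Cox7a2l (0.15 ± 0.07, adjusted p = 0.127) and Atp5k (0.14 ± 0.06) did not pass. In naive cells 0 of 68 passed in either direction by edgeR (where 0.799% of sites at any start and 1.54% of all sites did) and by the authors' deposited table (where 0.0108% of all sites were higher and 0.00632% lower in KO).

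With activation, sites at these promoters lost ground to the rest of the sites. In KO cells 62 of 68 were lower and 4 higher (91.2% lower, where 66.2% at any start and 38.8% of all sites were lower, and 5.88% higher, where 24.4% at any start and 49.7% of all were higher), and in WT cells 63 were lower and 4 higher (92.6% lower, where 66.5% at any start and 38.5% of all sites were lower, and 5.88% higher, where 25.2% at any start and 51.4% of all were higher). The median of the member sites stood 1.08 below that of all sites in KO and 1.32 below it in WT cells on the log2 scale, and 0.05 and 0.13 below that of sites at any start. Without TMM the distances from all sites were 1.07 in KO and 1.32 in WT cells, but the direction of single sites changed. Without TMM, which was added after seeing the data because TMM factors were 1.19 to 1.24 in activated and 0.794 to 0.853 in naive libraries, the median of all sites moved to 1.04 in KO and 1.09 in WT cells, and 26 sites were lower and 18 higher in KO, and 43 lower and 11 higher in WT cells. The shares of all sites called without TMM are not given here, so these counts are not results about the members.

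The site at Cox7a2l, the member whose mRNA fell most, had 32.0, 31.8 and 30.5 CPM in activated KO and 70.7, 57.1 and 58.5 CPM in naive KO libraries, and 29.8, 28.2 and 26.8 CPM in activated WT and 61.9, 57.1 and 64.5 CPM in naive WT libraries. The site at Atp5b, whose mRNA rose, moved alike, to 72.5 ± 1.85 CPM in activated KO, against 128 ± 6.12 CPM in naive KO cells, and to 65.5 ± 0.304 CPM in activated WT, against 131 ± 7.52 CPM in naive WT cells (SD, n = 3 each). Exceptions that gained were 1 of the 2 sites at Atp5j and the sites at Cox6b2, Ndufa13 and Ndufb6, by 1.03, 0.74, 0.79 and 0.54 in KO and by 0.99, 0.78, 1.19 and 0.38 in WT cells on the log2 scale with TMM.

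**Figure D5:**
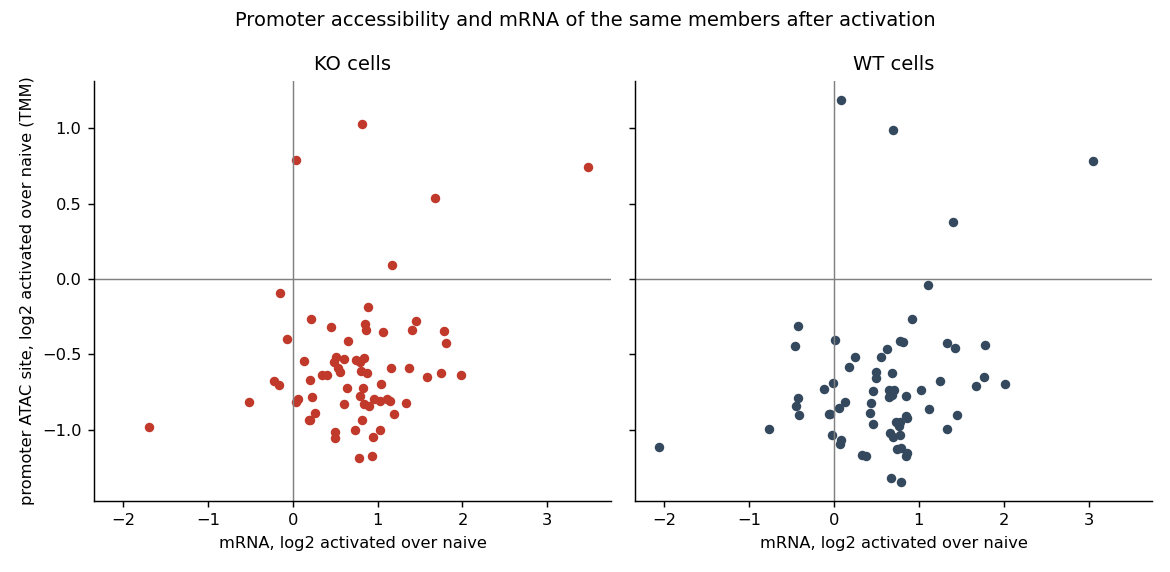
Log2 fold change, activated over naive, of each promoter ATAC site (vertical, TMM scaling) against that of the mRNA of the same member (horizontal), KO cells left and WT cells right. Each point is 1 of 68 sites. Most points lie right of 0 and below 0, with 62 sites lower in KO and 63 lower in WT cells.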

How the data were processed

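RNA-seq of 18 libraries and ATAC-seq of 12 libraries were used, grouped by the labels, with 3 libraries per group. The authors deposited counts of reads per gene for RNA and counts per site for ATAC as whole numbers without scaling, per the file headers. For ATAC the authors also deposited log2 means and folds, and the p-value and FDR of their own test per site. The build is mm10, per the submitters' processing notes, and the aligner, counter, strand setting, peak caller and test are not given in the sources used here. In the table of naive and activated RNA libraries 1314 unnamed features, with 0.128% to 0.159% of a library's counts, were left out.

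CPM of RNA are relative to library totals. Tests used edgeR 4.0.16 in R 4.3.3 (filterByExpr, TMM, robust quasi-likelihood fit, Benjamini-Hochberg adjustment over all genes or sites, 0.05), with naive and activated libraries in a shared fit, the 6 forskolin libraries in another and the 12 ATAC libraries in another. They were also run on simulated counts, but only with changes larger than most differences between genotypes given here. That run therefore does not cover such small differences. Fold changes are log2 with SE. Other settings tried were RLE or upper-quartile scaling, different count filters, DESeq2 1.42.0, limma-voom (limma 3.58.1), a replicate block, each library left out and stricter thresholds. Comparisons that share a group of libraries are not independent. Sites were tied to RefSeq starts on GRCm38.p6, the same assembly as mm10, and the 14 members without a start there were left out of the promoter counts. In their gene spans widened by 10 kb lay 51 sites, of which 9 were higher and 6 lower in activated KO, where 10.9% of all sites were higher and 17.5% lower.

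The members and gene lists were chosen with earlier results of these data known. Genes named are a fixed set of representative genes and isoforms, and in each complex and direction the 3 members with the smallest p past the test, plus 2 in each direction from lists of related genes in activated KO against WT and in activation of WT. Of the genes that the last part gives, only some are named. Pprc1, Slc25a3, Polg2 and the forskolin value of Myc were chosen after their values were seen. A limit set at 3 counts covers counting error only. Values of 1 member that the rule gives are not reported here.

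Whether equal replicate numbers pair libraries was checked by the correlation of deviations from group means. In activated KO and WT libraries it was 0.557, 0.280 and 0.236, and in activated and naive KO libraries 0.360, 0.180 and 0.126. Libraries of unequal number gave up to 0.254 and up to 0.123 in these comparisons. Replicate 1 thus stood apart in both, and replicates 2 and 3 were not shown to pair. The correlation at equal numbers was below 0.1 for at least 1 pair in naive KO and WT, in activated and naive WT, and in forskolin libraries.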

Additional observations from a re-analysis of the deposited data

Results flagged for a closer look

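In 4 of 84 members tested in both fits (4.76%), every KO library stood above every WT library after activation, and every KO library stood below every WT library with forskolin. The same held for 322 of 10998 genes (2.93%), and the members are Cox7a2l, Ndufa4, Ndufa6 and Ndufb11, the last of which the naming rule did not give for these comparisons. Only Cox7a2l passed the test in both conditions. Ndufa4 and Ndufa6 did not pass in activated cells (adjusted p = 0.588 and 0.171, edgeR), Ndufa6 did not pass with forskolin (adjusted p = 0.321), and the forskolin call of Ndufa4 was lost in 8 of 13 other settings. The difference between the log2 fold changes, activated minus forskolin, was 0.43 for Cox7a2l, 0.33 for Ndufa4 and 0.52 for Ndufa6. Cox7a2l joins complexes III and IV, and it had 156, 150 and 158 CPM in activated KO and 125, 117 and 121 CPM in activated WT libraries, against 351, 354 and 364 CPM in KO and 380, 377 and 374 CPM in WT libraries with forskolin. Ndufa4 had 142, 149 and 153 CPM in activated KO and 117, 137 and 138 CPM in activated WT libraries, and 47.0, 51.4 and 49.9 CPM in KO and 53.9, 57.5 and 52.3 CPM in WT libraries with forskolin. Ndufa6, an accessory subunit of complex I, had 11.3, 11.6 and 14.1 CPM in activated KO and 9.91, 11.1 and 7.99 CPM in activated WT libraries, and 8.98, 8.29 and 8.52 CPM in KO and 9.65, 9.79 and 9.66 CPM in WT libraries with forskolin. The difference between the conditions was not tested, because they lie in separate tables.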

How the results depend on the processing

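Counts below are of members or promoter sites past the test. In activated KO against WT cells, the 5 members higher became 9 with upper-quartile scaling, 0 at an adjusted p of 0.01 and 1 to 7 with a library left out, and the 0 lower became 0 to 1 (1 without naive WT replicate 3). With the replicate block, although replicates 2 and 3 were not shown to pair, they were 7 higher and 0 lower. The block changed the difference in activation between genotypes to 1 higher. That difference gave 2 higher with upper-quartile scaling, 1 without a count filter and 0 to 2 with a library left out (1 without activated KO replicate 1 or naive WT replicate 1, 2 without naive KO replicate 2). With forskolin, the 6 lower became 3 with DESeq2, 2 at 0.01 and 4 to 6 with a library left out. Activation in KO cells gave 2 to 4 lower with a library left out (2 without activated KO replicate 1 or naive KO replicate 2), 2 lower at 0.01, and, at an absolute log2 fold change of at least 1, 25 higher and 1 lower. In WT cells that minimum left 17 higher and 2 lower. The 20 promoter sites higher in activated KO became 8 with RLE scaling, 42 without TMM (a setting chosen after seeing the data), 6 to 23 with a library left out and 0 by the authors' deposited FDR, and 1 was lower within 1000 bases of a start. In naive cells 0 to 1 were lower with a library left out (1 without activated WT replicate 1 or naive KO replicate 2) and 1 within 1000 bases. The 4 sites that gained with activation became 18 in KO and 11 in WT cells without TMM, and 7 in each within 1000 bases, and the 62 lower in KO cells became 26 without TMM. Shares of all sites called without TMM are not given here, so its counts are not results about the members. In activated KO against WT cells the median of all sites was 0.02 with TMM and 0.04 without it. The member median stood 0.12 above it in both. The causes were not tested. Of values of single members and complexes, 2160 were counted as unchanged, 67 lost and 3 gained a call, and 18 moved. Direction was compared for members past the main test, of which 0 reversed. Members not past it counted as unchanged by the size of the change, so their direction may differ between settings. The 3 that gained were Cox4i1 with forskolin and on activation of KO cells, and Cox7a2l in the difference of activation. Depth limits Cox7a2, Cox6b2 and the isoforms below 1 CPM.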
